A study of Arabidopsis thaliana with 6 samples.

Results

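The genes described here are encoded in the plastid genome of Arabidopsis thaliana but not for the photosynthetic complexes, the NDH complex or Rubisco. They code for proteins of the plastid ribosome, for subunits of the plastid's own RNA polymerase, for the enzyme subunits accD and clpP and the maturase matK, for the membrane proteins ccsA and cemA, and for the photosystem I assembly factors ycf3 and ycf4. A probe set, the group of short oligonucleotides that together report 1 transcript on the array, was included when the array annotation gave it exactly 1 plastid gene whose symbol did not start with psa, psb, pet, atp, ndh or rbcL. The rule found 26 of the 22746 probe sets that were not controls, each for a different gene, and all 26 were bright enough to be tested. There were 8 small-subunit genes (rps2, rps3, rps4, rps14, rps15, rps16, rps18 and rps19), 7 large-subunit genes (rpl14, rpl16, rpl20, rpl22, rpl32, rpl33 and rpl36), 4 polymerase genes (rpoA, rpoB, rpoC1 and rpoC2), and accD, clpP, matK, ccsA, cemA, ycf3 and ycf4. No probe set was assigned to a plastid orf alone. A further 8 plastid probe sets listed more than 1 gene copy, 7 of them for genes of these kinds, and were kept apart.

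Plastid genes are read by 2 kinds of RNA polymerase. A bacterial-type enzyme has its core subunits encoded by rpoA, rpoB, rpoC1 and rpoC2 in the plastid itself, whereas a phage-type enzyme is encoded in the nucleus and is known for reading housekeeping genes such as accD and the rpoB operon. Most plastid genes are copied as long transcripts of several genes, which are then cut, spliced and stabilised by imported nuclear proteins. The plastid ribosome is of the bacterial type and mixes plastid-encoded with imported proteins.

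Transcripts came from 10-day-old light-grown seedlings raised on MS medium with 2% sucrose and 0.8% agar after 72 h of cold. There were 2 biological replicates in each of 3 groups: wild type, transgenic seedlings overexpressing rice OsTOP6A3 and transgenic seedlings overexpressing rice OsTOP6B. Both transgenes code for subunits of topoisomerase VI from rice, which untangles DNA by moving duplexes through one another. Ecotype Columbia is stated for 5 arrays, and wild-type replicate 1 carries no ecotype label. Each overexpressor is represented by 1 line name (OEA3L5 and OETOP6B), no empty-vector line is among the samples and the promoter driving the transgenes is not stated, so that an effect of the subunit and of the line cannot be told apart. Both comparisons with wild type use the same 2 wild-type arrays. The labels call the replicates biological without saying how the cultures were kept apart, so the p-values measure the spread between these arrays.

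The arrays had median deposited intensities of 66.2 to 103.5 and were brought to a common distribution before testing. Values below are log2 intensities after that step unless called deposited, and a called gene is one with an adjusted p under 0.05 in limma's moderated test over 17059 probe sets. OsTOP6B replicate 1 stood apart in some controls. Its 25S ribosomal RNA probe set gave 252.1 after scaling to the array median, against 28.4 to 62.0 on the other 5 arrays. The summed signal of the control probe sets labelled r2-Bs, scaled the same way, was 2096, against 982 to 1573 on the other 5. In the actin pair of control probe sets labelled r2 the ratio of 3' to 5' signal was 1.62 to 1.87 on all 6 arrays. This ratio rises as RNA breaks down. In the array's other actin pair the deposited 3' signal was 1648 to 2696 and the 5' signal 165 to 222, a wider gap. For GAPDH and ubiquitin the ratio in the r2 pairs was 0.86 to 0.98 and 1.04 to 1.26. The other GAPDH pair gave deposited 3' signals of 2789 to 4831 and 5' signals of 2221 to 3730. In the other ubiquitin pair these were 5018 to 8663 and 2135 to 3692. The summed normalized intensity, on the linear scale, of the 4 leaf markers measured (RCA, PRK, SBPASE and LHCB4.1) was 23670 and 24270 on the wild-type arrays, 22180 and 22440 on those of OsTOP6A3, and 20200 and 23530 on those of OsTOP6B, with 0 of 4 called in either comparison. The 3 root markers measured (PYK10, EXPA7 and EXPA18) summed to 6318 to 8126 on the same scale across the arrays, mostly from PYK10. Of these, 1 rose in OsTOP6A3 (EXPA7, by 1.23 ± 0.16). In OsTOP6B 2 rose (EXPA7 by 1.73 ± 0.16 and EXPA18 by 0.81 ± 0.15). EXPA18 in OsTOP6A3, at 0.15, and PYK10, at 0.16 and 0.15, were not called. In whole seedlings, fewer plastid-rich cells and less plastid RNA per cell cannot be told apart, and the part of tissue makeup in the results was not tested.

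In OsTOP6A3 seedlings the plastid housekeeping transcripts lay mostly below wild type: 21 of 26 had a negative log2 change, with a median of -0.28 beside -0.02 over all tested probe sets. Only the ribosomal protein gene rps4 and the cytochrome assembly gene ccsA fell past the threshold, and 0 rose. That is 7.69% of the 26, beside 9.68% of all tested probe sets called in either direction, 4.17% called lower and 5.52% called higher. In OsTOP6B seedlings the median was 0.07 beside -0.02 over all, and rpl16, rpl20 and accD rose while 0 fell. These 3 are 11.5% of the 26, beside 14.9% of all tested probe sets called in either direction, 7.91% higher and 6.98% lower. Over both directions neither share stood above that of the whole array, while in the direction of the calls both did, on counts of only 2 and 3 genes. At an unadjusted p under 0.05 in limma's test 5 of the 26 (19.2%) differed from wild type in OsTOP6A3, beside 25.9% of all tested probe sets, and 8 (30.8%) in OsTOP6B, beside 31.4%. The absence of falls in OsTOP6B depended on the setting: without OsTOP6B replicate 1 the calls were 0 higher and 2 lower (rpl22 at -0.80, adjusted p = 0.0208, and rpl33 at -0.62, adjusted p = 0.0357).

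**Figure D1:**
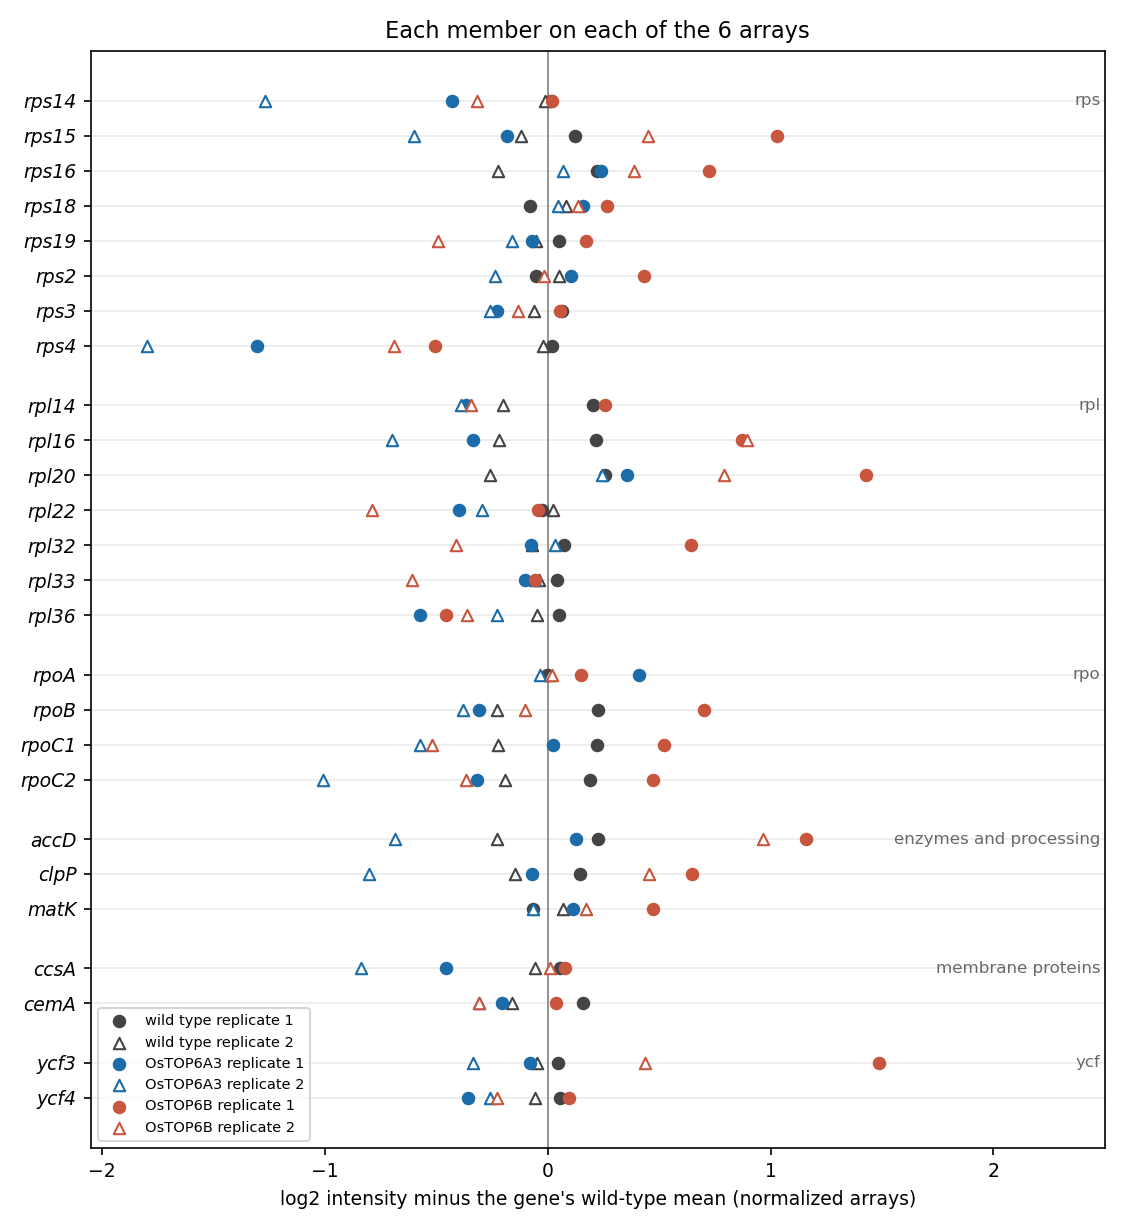
Log2 intensity of each of the 26 genes on each of the 6 arrays, as the difference from that gene's mean of the 2 wild-type arrays (x axis); circles are replicate 1, triangles replicate 2, and the right margin names the class. The OsTOP6A3 arrays (blue) lie farthest left for rps4, at -1.31 and -1.80 in the plotted units, and OsTOP6B replicate 1 (filled red) is the rightmost point for 18 of 26 genes.

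The plainest change among the small-subunit genes was that of rps4 (ArthCp024), which in bacteria encodes a protein that binds ribosomal RNA early in assembly of the subunit. Its deposited intensities were 6812 and 7039 in wild type, 3546 and 2456 in OsTOP6A3, and 5678 and 3737 in OsTOP6B. After normalization these became 12.88 and 12.85, 11.56 and 11.07, and 12.36 and 12.18 on the log2 scale. All 4 overexpressor arrays were below both wild-type arrays, and the OsTOP6A3 arrays were below the OsTOP6B arrays. In OsTOP6A3 rps4 fell by 1.55 ± 0.18 (SE, n = 2 arrays per group) on the log2 scale, which is 2.93-fold lower (adjusted p = 0.00212). In OsTOP6B its change of -0.60 ± 0.18 did not pass (adjusted p = 0.0619), although it did without either OsTOP6A3 array (adjusted p = 0.0444 without replicate 1 and 0.0457 without replicate 2). The fall in OsTOP6A3 kept its call under all 15 alternative settings, at -1.80 to -1.12.

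No other small-subunit gene was called against wild type. The class as a whole had a median change of -0.18 in OsTOP6A3 (6 of 8 below 0) and 0.08 in OsTOP6B (4 of 8 above 0). rps15, a subunit protein gene at one end of the small single-copy region, read 8.23 and 7.99 in wild type, 7.92 and 7.51 in OsTOP6A3, and 9.13 and 8.56 in OsTOP6B. Its groups were fully separated, with OsTOP6A3 lowest and OsTOP6B highest. The change was -0.39 ± 0.23 in OsTOP6A3 (adjusted p = 0.320) and 0.74 ± 0.23 in OsTOP6B (adjusted p = 0.0665).

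rps14, which is copied together with the photosystem I genes psaA and psaB, was the dimmest of the 26 probe sets and read 5.57 and 5.55 in wild type, 5.13 and 4.29 in OsTOP6A3, and 5.58 and 5.24 in OsTOP6B. The deposited intensity on OsTOP6A3 replicate 2 was only 3.8, below the pseudocount of 16 added to every value, and the files hold no detection call. Its change in OsTOP6A3 was -0.85 ± 0.26 (adjusted p = 0.0848), and the same change passed narrowly with a replicate block in limma's model (adjusted p = 0.0474). The size depended on the pseudocount, at -1.75 with 1 (adjusted p = 0.180) and -0.35 with 64 (adjusted p = 0.0816). It passed without OsTOP6A3 replicate 1 (-1.25, adjusted p = 0.0202) and stood at -0.43 without replicate 2 (adjusted p = 0.321). rps16 read 8.41 and 7.97 in wild type, 8.43 and 8.25 in OsTOP6A3, and 8.91 and 8.57 in OsTOP6B, so that only the OsTOP6B arrays lay clear of wild type, by 0.55 ± 0.19 (adjusted p = 0.0897).

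The remaining small-subunit genes moved little. rps19 differed least of the class, with 11.87 and 11.76 in wild type, 11.74 and 11.65 in OsTOP6A3, and 11.99 and 11.32 in OsTOP6B, and the OsTOP6B arrays lay on either side of the other 4. rps2, rps3 and rps18 changed by between -0.24 and 0.10 in OsTOP6A3 and between -0.04 and 0.21 in OsTOP6B, with standard errors of 0.13 to 0.19.

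**Figure D2:**
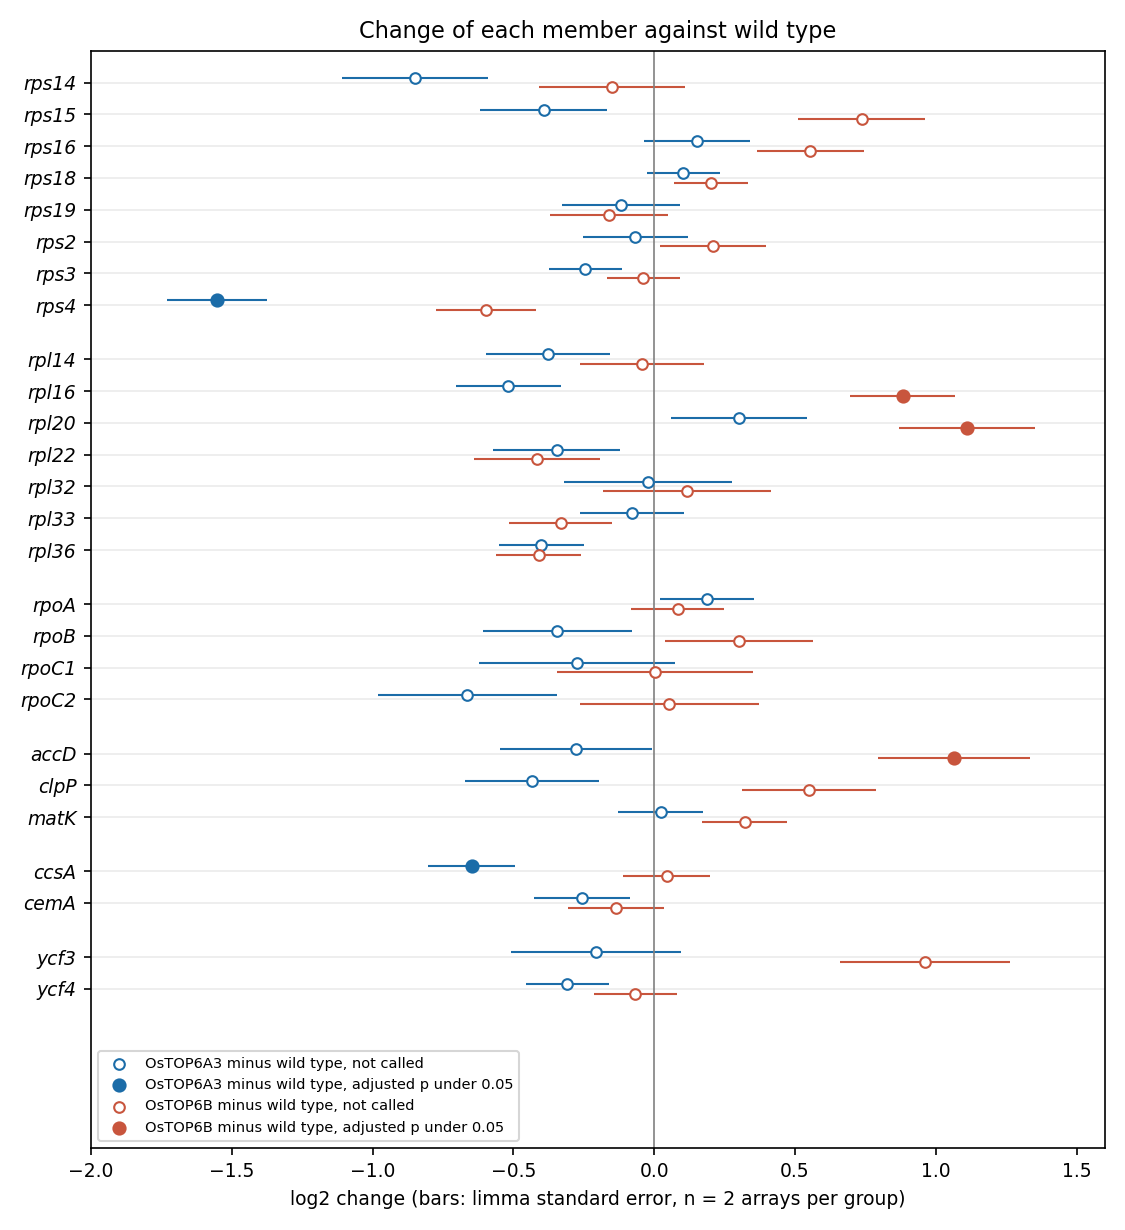
Log2 change against wild type (x axis) of the 26 genes in OsTOP6A3 (blue) and OsTOP6B (red); bars are limma's standard error and filled points passed an adjusted p under 0.05. Filled points are rps4 and ccsA on the left and rpl16, rpl20 and accD on the right.

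Large-subunit genes split in OsTOP6B, where rpl16 and rpl20 rose and rpl22, rpl33 and rpl36 lay below wild type without passing. rpl16 (ArthCp060) codes for a protein that in bacteria sits near the site of peptide bond formation. It read 10.67 and 10.24 in wild type, 10.12 and 9.76 in OsTOP6A3, and 11.33 and 11.35 in OsTOP6B. The 2 OsTOP6B arrays were close to each other and above the other 4, and both OsTOP6A3 arrays were below wild type. rpl16 rose by 0.88 ± 0.19 in OsTOP6B, 1.84-fold (adjusted p = 0.0206), and its change of -0.52 ± 0.19 in OsTOP6A3 did not pass (adjusted p = 0.130).

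For rpl20 (ArthCp045), the gene of a large-subunit protein that in bacteria acts early in subunit assembly, the arrays gave 7.44 and 6.93 in wild type, 7.54 and 7.43 in OsTOP6A3, and 8.61 and 7.98 in OsTOP6B. Both OsTOP6B arrays were the highest, and the gap of 0.52 between the wild-type arrays was wider than the change in OsTOP6A3. rpl20 rose by 1.11 ± 0.24 in OsTOP6B, 2.16-fold (adjusted p = 0.0228), and changed by 0.30 ± 0.24 in OsTOP6A3 without passing (adjusted p = 0.481). With OsTOP6B replicate 1 left out, the rises of rpl16 (0.90, adjusted p = 0.0644) and rpl20 (0.79, adjusted p = 0.0756) no longer passed. Leaving out wild-type replicate 2 also ended both calls (rpl16 at 0.66, adjusted p = 0.0994, and rpl20 at 0.85, adjusted p = 0.109), and leaving out OsTOP6B replicate 2 ended that of rpl16 (0.87, adjusted p = 0.0810).

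Below wild type in both overexpressors stood rpl22, whose bacterial counterpart lines the tunnel through which the new protein leaves. Its values were 12.06 and 12.10 in wild type, 11.68 and 11.79 in OsTOP6A3, and 12.04 and 11.29 in OsTOP6B. The OsTOP6B replicates were far apart, the first close to wild type and the second the lowest of the 6. rpl36 read 11.74 and 11.64 in wild type, 11.12 and 11.47 in OsTOP6A3, and 11.24 and 11.33 in OsTOP6B, a change of -0.40 ± 0.15 (adjusted p = 0.145) and -0.41 ± 0.15 (adjusted p = 0.110). All 4 overexpressor arrays were below both wild-type arrays, and neither group mean passed. With trend and robust variances both did (adjusted p = 0.0450 and 0.0314).

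The other large-subunit genes were not called. rpl14 read 10.09 and 9.69 in wild type, 9.52 and 9.50 in OsTOP6A3, and 10.15 and 9.54 in OsTOP6B. rpl32 differed least of the class in its group means, with 11.44 and 11.29 in wild type and 11.29 and 11.40 in OsTOP6A3, but its OsTOP6B arrays at 12.01 and 10.96 were the highest and the lowest of the 6. rpl33, dispensable in tobacco except in the cold, changed by -0.08 ± 0.18 in OsTOP6A3 and -0.33 ± 0.18 in OsTOP6B (adjusted p = 0.821 and 0.263).

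None of the 4 polymerase genes was called in either overexpressor. rpoB, rpoC1 and rpoC2, which encode the catalytic core subunits, lay below wild type in OsTOP6A3 by 0.27 to 0.66 on the log2 scale, whereas rpoA, for the subunit on which the core assembles, lay 0.19 above it. rpoC2 read 10.21 and 9.82 in wild type, 9.70 and 9.0 in OsTOP6A3, and 10.49 and 9.65 in OsTOP6B. rpoB read 6.71 and 6.26, 6.17 and 6.10, and 7.18 and 6.38, and rpoC1 read 10.66 and 10.22, 10.46 and 9.87, and 10.96 and 9.92 in the same order. In all 3 genes replicate 1 was above replicate 2 in every group, and the gap within OsTOP6B, 0.80 to 1.04, was larger than any difference between group means. rpoA, the flattest of the class, read 11.70 and 11.71 in wild type, 12.12 and 11.68 in OsTOP6A3, and 11.86 and 11.73 in OsTOP6B.

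The enzyme and processing genes were all higher in OsTOP6B than in wild type, and 1 of 3 passed. accD (ArthCp031) encodes a subunit of the plastid acetyl-CoA carboxylase, which makes the building block of fatty acids. It read 9.02 and 8.56 in wild type, 8.92 and 8.11 in OsTOP6A3, and 9.95 and 9.76 in OsTOP6B, so that only the OsTOP6B arrays lay outside the range of the others on the upper side. accD rose by 1.06 ± 0.27 in OsTOP6B, 2.09-fold (adjusted p = 0.0382), and changed by -0.28 ± 0.27 in OsTOP6A3 (adjusted p = 0.563). Leaving out an array of either group ended its call, with changes of 1.29 (wild-type replicate 1 out, adjusted p = 0.0641), 0.83 (wild-type replicate 2 out, 0.166), 0.97 (OsTOP6B replicate 1 out, 0.130) and 1.16 (OsTOP6B replicate 2 out, 0.101).

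clpP, the plastid-encoded proteolytic subunit of the Clp protease, read 11.81 and 11.52 in wild type, 11.60 and 10.87 in OsTOP6A3, and 12.31 and 12.12 in OsTOP6B. OsTOP6B lay above both other groups by 0.55 ± 0.24 against wild type (adjusted p = 0.160), and OsTOP6A3 overlapped wild type. matK, a maturase that helps to splice plastid introns, read 12.13 and 12.26 in wild type, 12.31 and 12.13 in OsTOP6A3, and 12.67 and 12.37 in OsTOP6B, with a change of 0.32 ± 0.15 in OsTOP6B (adjusted p = 0.191) and 0.02 ± 0.15 in OsTOP6A3.

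ccsA (ArthCp073) was the other gene that fell in OsTOP6A3. Its product takes part in attaching haem to cytochrome f and other c-type cytochromes of the thylakoid. The arrays gave 12.18 and 12.06 in wild type, 11.66 and 11.28 in OsTOP6A3, and 12.20 and 12.13 in OsTOP6B, so OsTOP6B lay at the wild-type level and OsTOP6A3 below both. ccsA fell by 0.65 ± 0.16 on the log2 scale in OsTOP6A3, 1.57-fold lower (adjusted p = 0.0404), and changed by 0.04 ± 0.16 in OsTOP6B (adjusted p = 0.879). The call rested on every array: the change was -0.59 with the first wild-type array left out (adjusted p = 0.184), -0.69 with the second (0.108), -0.84 with the first OsTOP6A3 array left out (0.0528) and -0.45 with the second (0.230). It was also lost without OsTOP6B replicate 1 (-0.66, adjusted p = 0.0508) or replicate 2 (-0.66, adjusted p = 0.0560), which enter through the normalization and the shared estimate of the spread.

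cemA, an inner envelope protein linked in green algae to the uptake of inorganic carbon, read 12.30 and 11.99 in wild type, 11.94 and 11.84 in OsTOP6A3, and 12.18 and 11.84 in OsTOP6B. Its changes of -0.26 ± 0.17 and -0.14 ± 0.17 were no larger than the gap between the wild-type arrays. ycf3 and ycf4 both encode factors for the assembly of photosystem I, and they differed from each other. ycf3 read 7.12 and 7.03 in wild type, 7.0 and 6.74 in OsTOP6A3, and 8.57 and 7.51 in OsTOP6B.

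For ycf3 the 3 groups were separated, with OsTOP6B on top by 0.96 ± 0.30 (adjusted p = 0.0716), but the OsTOP6B replicates differed from each other by more than this. Without OsTOP6B replicate 2 the change was 1.49 and passed (adjusted p = 0.00944), and without OsTOP6B replicate 1 it was 0.43 (adjusted p = 0.123). ycf4 read 11.15 and 11.04 in wild type, 10.74 and 10.83 in OsTOP6A3, and 11.19 and 10.87 in OsTOP6B, a change of -0.31 ± 0.15 (adjusted p = 0.234) and -0.07 ± 0.15.

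Counting genes whose 2 arrays lay entirely on one side of wild type gives a broader view than the calls. In OsTOP6A3 16 of 26 genes (61.5%) were below both wild-type arrays and 0 were above, beside 32.4% and 28.6% of all tested probe sets. In OsTOP6B 10 of 26 (38.5%) were above and 4 (15.4%) below, beside 27.2% and 30.1% of all tested probe sets. The 4 below wild type in OsTOP6B, namely rps4, rpl22, rpl33 and rpl36, were also below it in OsTOP6A3, a comparison that shares its wild-type arrays. The plastid genes share 1 genome and many transcripts, so these counts do not stand for independent genes.

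The direction in OsTOP6A3 was relative to the rest of the array. Normalization moved the median change of all tested probe sets from 0.34 on the deposited scale to -0.02, and on the deposited scale 17 of the 26 genes lay above wild type, with a median of 0.11. Relative to the median of all probe sets the genes were lower by 0.26 after normalization and by 0.22 on the deposited scale (median change minus that of all tested probe sets, -0.26 and -0.22). In OsTOP6B the same relative value was 0.09 after normalization and 0.05 on the deposited scale.

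**Figure D3:**
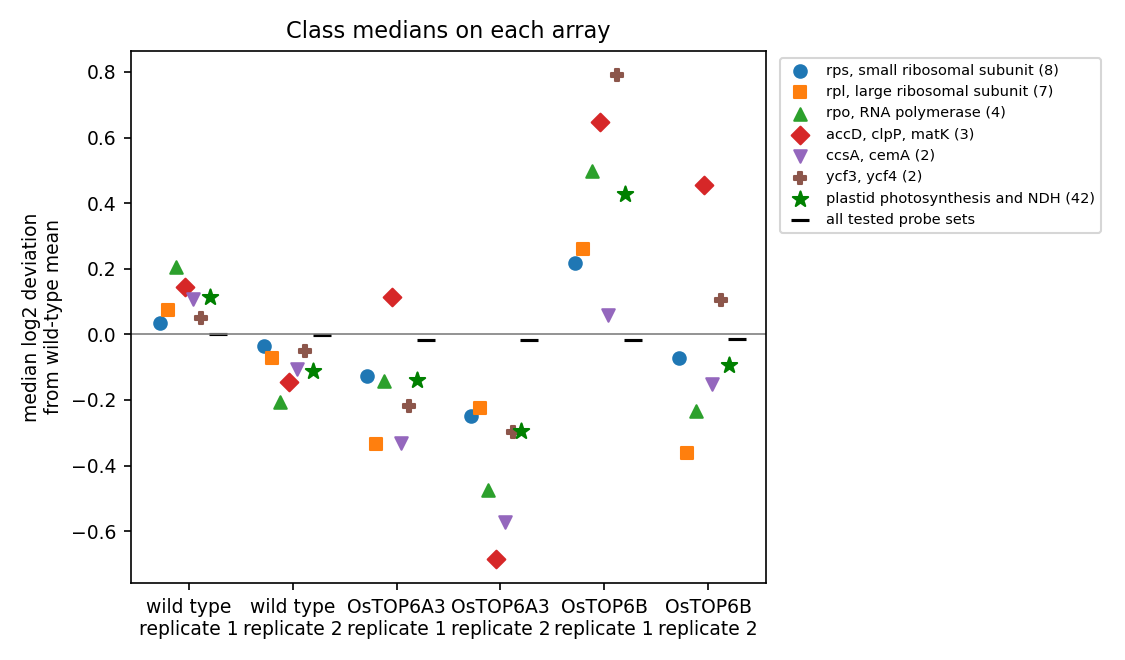
Median log2 deviation from the wild-type mean (y axis) of each class on each of the 6 arrays, with the 42 tested plastid photosynthesis and NDH genes (star) and all tested probe sets (dash). On OsTOP6B replicate 1 every class lies above 0, on OsTOP6A3 replicate 2 every class lies below it, and the dash stays within 0.02 of 0.

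Array by array, the median deviation of the 26 genes from the wild-type mean was 0.06 and -0.06 for wild type, -0.14 and -0.30 for OsTOP6A3, and 0.35 and -0.12 for OsTOP6B. The OsTOP6B replicates therefore lay on opposite sides of wild type, and the group median of 0.07 stood between them. OsTOP6B replicate 1 was the highest of the 6 arrays for 18 of 26 genes, beside 15.7% of all tested probe sets, and OsTOP6A3 replicate 2 was the lowest for 15 of 26, beside 11.1%. Without OsTOP6B replicate 1 the median change in OsTOP6B was -0.12, and without OsTOP6B replicate 2 it was 0.35.

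Classes differed in how their OsTOP6B replicates behaved. The class median of accD, clpP and matK was 0.65 and 0.46 on the 2 OsTOP6B arrays, so both were high. The polymerase genes gave 0.50 and -0.23, the large-subunit genes 0.26 and -0.36, and the small-subunit genes 0.22 and -0.07. Replicates of OsTOP6B differed by more than 0.5 on the log2 scale for 11 of 26 genes (42.3%), beside 10% of all tested probe sets. For the plastid photosynthesis and NDH genes the share was 42.9%, so a wide gap between these replicates was shared by both kinds of plastid genes. The 25S ribosomal RNA signal and the summed r2-Bs control signal were also highest on OsTOP6B replicate 1. What these controls have to do with the gap was not tested.

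Set directly against each other, the overexpressors differed in no call. No gene of the 26 was called between OsTOP6A3 and OsTOP6B, and 0% of all tested probe sets were. At an unadjusted p under 0.05, 10 of 26 genes (38.5%) differed, all lower in OsTOP6A3, beside 7.24% of all tested probe sets. Groups did not overlap for 15 of 26 genes, all 15 lower in OsTOP6A3 (57.7%), beside 19.2% of all tested probe sets lower and 19.1% higher. The median difference was -0.32, beside 0.00 over all. Of the 42 tested photosynthesis and NDH genes 19 (45.2%) differed at an unadjusted p under 0.05 in limma's test. In 20 of the 42 (47.6%) OsTOP6A3 lay below OsTOP6B without overlap, and in 4 (9.52%) above it. The median difference of the 42 was -0.48, so lower values in OsTOP6A3 were shared by both kinds of plastid genes.

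The widest differences between the overexpressors were those of rpl16 at -1.40 ± 0.19 (2.64-fold, adjusted p = 0.505), accD at -1.34 ± 0.27 (adjusted p = 0.663), ycf3 at -1.17 ± 0.30 (adjusted p = 0.675) and rps15 at -1.13 ± 0.23 (adjusted p = 0.658). These 4 genes also kept separated groups, as the values above show. With an intensity trend and robust variances rpl16 passed (adjusted p = 0.0142), and it passed with a pseudocount of 64 (adjusted p = 0.0259). Without OsTOP6B replicate 1 the differences were -1.42 for rpl16, -1.25 for accD, -0.64 for ycf3 and -0.84 for rps15. For the 26 genes the median half-width of the 95% interval of the difference was 0.46, so that smaller differences were not resolved by 2 arrays a group.

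The difference between overexpressors was unequal across the brightness of the probe sets, a quantity that depends on probe design as well as on transcript level. Among the 13 dimmer probe sets all 13 were lower in OsTOP6A3 than in OsTOP6B, with a median of -0.70. Of the 13 brighter ones 8 were lower, with a median of -0.12. Across the 26 genes the difference correlated with mean log2 intensity at Pearson's r = 0.50 and Spearman's rho = 0.56, and across the 42 photosynthesis and NDH genes at 0.56 and 0.59. These genes share their arrays and, in part, their transcripts, and the mean intensity contains the same values as the difference. rps4, clpP and ccsA stood out as bright probe sets with a wide difference (-0.95, -0.99 and -0.69). For the change in OsTOP6B against wild type Pearson's r and Spearman's rho were -0.49 and -0.52 across the 26 and -0.35 and -0.38 across the 42. For the change in OsTOP6A3 they were 0.02 and 0.09 across the 26 and 0.29 and 0.46 across the 42. rpl16, rpl20 and accD, the genes called in OsTOP6B, are all among the 13 dimmer probe sets.

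**Figure D4:**
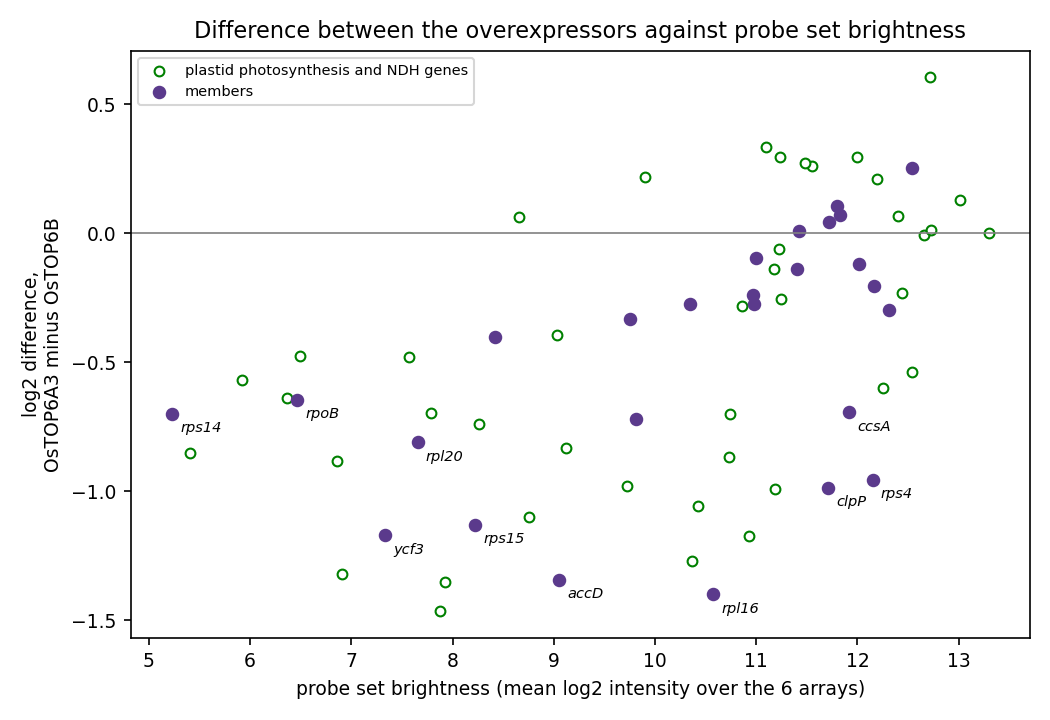
Log2 difference between OsTOP6A3 and OsTOP6B (y axis) against the mean log2 intensity of the probe set over the 6 arrays (x axis) for the 26 genes (filled) and the 42 tested photosynthesis and NDH genes (open); names mark the 10 genes with an unadjusted p under 0.05. All 13 dimmer filled points lie below 0, and the brighter ones range from -0.99 to 0.25.

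Genes next to each other on the plastid map could differ widely in their changes. The ribosomal protein cluster that runs from rps19 to rpoA gave 7 probe sets, and their changes ranged from -0.52 to 0.19 in OsTOP6A3 and from -0.42 to 0.88 in OsTOP6B. Within it rpl16 rose in OsTOP6B, while its neighbours rpl14 and rps3 both stood at -0.04. rpl20 and clpP, next to each other among the 26 genes, stood at 1.11 and 0.55 in OsTOP6B, and rps18, on the other side of rpl20, at 0.20. On textbook maps rps12 lies between rpl20 and clpP. Its probe sets, kept apart because they list more than a single gene copy, stood at -0.43 and 0.36 in OsTOP6B. accD lies beside rbcL, the gene of the large subunit of Rubisco, which rose by 0.83 ± 0.19 in OsTOP6B (adjusted p = 0.0292).

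At the end of the small single-copy region, rps15 is the neighbour of the NDH gene ndhH, which rose by 1.46 ± 0.29 in OsTOP6B (adjusted p = 0.0157) and changed by 0.76 ± 0.29 in OsTOP6A3 (adjusted p = 0.145). rps4 was unlike its neighbours: ycf3 stood at -0.21 in OsTOP6A3 and 0.96 in OsTOP6B, and ndhJ at -0.62 and 0.73, against -1.55 and -0.60 for rps4. matK was also unlike psbA, beside which it lies. psbA, for the D1 protein of photosystem II, fell by 2.20 ± 0.21 in OsTOP6A3 (adjusted p = 0.000971) and by 1.15 ± 0.21 in OsTOP6B (adjusted p = 0.011), while matK did not pass in either.

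**Figure D5:**
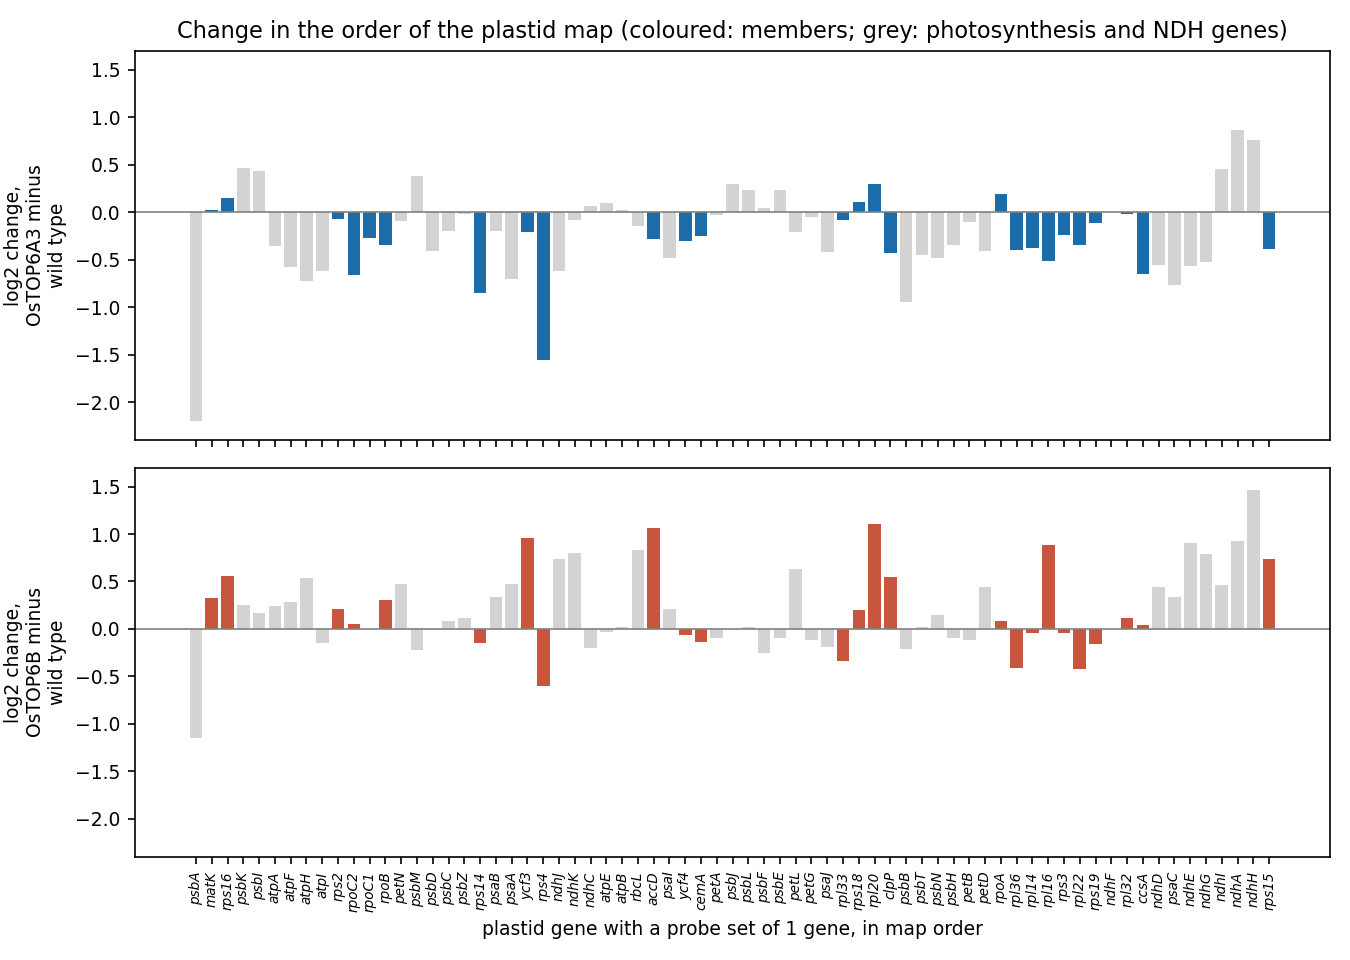
Log2 change against wild type (y axis) of plastid genes in the order of the plastid map (x axis, 1 bar per probe set with 1 gene) for OsTOP6A3 (top) and OsTOP6B (bottom); coloured bars are the 26 genes and grey bars photosynthesis and NDH genes. In the top panel psbA and rps4 reach farthest down, and in the bottom panel the bars of ndhH, rpl20 and accD reach farthest up; ndhF was not tested and has no bar.

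The 42 tested photosynthesis and NDH genes of the same genome lay to the same side of wild type at the median. In OsTOP6A3 the median change was -0.28 for the 26 genes and -0.20 for the 42, and groups lay below wild type for 61.5% and 45.2%. They lay above wild type in 0 of the 26 and in 9 of the 42 (21.4%). In OsTOP6B the medians were 0.07 and 0.16, and 38.5% and 31% lay above wild type. A difference between the 2 sets was not tested.

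Few nuclear partners of these genes could be matched to a probe set, since the annotation used names no gene for 8730 of the 22746 probe sets and several for 503. Of 40 nuclear genes for plastid ribosomal proteins 9 were measured, and 0 were called by limma in either comparison (4 in OsTOP6A3 and 3 in OsTOP6B at an unadjusted p under 0.05), with medians of -0.18 in OsTOP6A3 and -0.29 in OsTOP6B. All 9 were below 0 in OsTOP6B and 8 of 9 in OsTOP6A3. The widest changes were -0.37 ± 0.13 for AT3G54210 in OsTOP6A3 (adjusted p = 0.123) and -0.46 ± 0.13 for AT3G13120 in OsTOP6B (adjusted p = 0.0567).

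Of 21 nuclear genes for plastid transcription 1 was measured, AT5G15700, which read 5.72 and 5.67 in wild type, 6.13 and 6.30 in OsTOP6A3, and 6.12 and 6.30 in OsTOP6B. It rose by 0.52 ± 0.13 in OsTOP6B (adjusted p = 0.0394), and the equal change of 0.52 ± 0.13 in OsTOP6A3 missed the threshold (adjusted p = 0.0501). Of 13 nuclear Clp protease genes 4 were measured. CLPP4, a proteolytic subunit that works beside the clpP product, rose by 0.55 ± 0.13 in OsTOP6A3 (adjusted p = 0.0348) and by 0.61 ± 0.13 in OsTOP6B (adjusted p = 0.0181). AT4G12060 rose by 0.62 ± 0.14 in OsTOP6B (adjusted p = 0.0287) and changed by 0.47 ± 0.14 in OsTOP6A3 (adjusted p = 0.0863).

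Among 3 nuclear genes of cytochrome c assembly 2 were measured. CcdA, a thylakoid membrane protein that passes reducing power across the membrane to this pathway, read 7.85 and 7.51 in wild type, 9.46 and 9.58 in OsTOP6A3, and 9.27 and 9.65 in OsTOP6B. All 4 overexpressor arrays were well above wild type, and it rose by 1.84 ± 0.18 in OsTOP6A3 (adjusted p = 0.00112) and by 1.78 ± 0.18 in OsTOP6B (adjusted p = 0.00111). ccsA, which serves the same pathway from the plastid genome, fell in OsTOP6A3 and stood at the wild-type level in OsTOP6B. AT1G49380, the other gene of the list, changed by 0.07 ± 0.13 and -0.24 ± 0.13 without passing. Of 9 nuclear partners of the ycf1 and ycf2 products 1 was measured, MDH, at 0.35 ± 0.18 and 0.07 ± 0.18, and the nuclear subunits of the plastid acetyl-CoA carboxylase were not analysed here.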

How the data were processed

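RNA of 6 seedling samples, 2 per group, was measured on a 1-colour Affymetrix Arabidopsis array. The deposited values are 1 linear intensity per probe set and array; how the authors summarised the probes is not given in the sources used here. Per the labels, RNA was extracted with TRIzol reagent.

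From these values 64 controls were set aside, 16 was added, log2 was taken and the columns were quantile normalized, because quartiles differed by up to 0.54 (limit 0.1). Probe sets at or above the 25th percentile of mean log2 intensity were tested (17059). The pseudocount shrinks the changes of dim probe sets, and 2 arrays a group limit the precision. All arrays entered 1 linear model in limma 3.58.1 (lmFit, then eBayes; R 4.3.3; 3 residual and 4.61 prior degrees of freedom), without a replicate block. Tests were two-sided, with Benjamini-Hochberg adjustment over all tested probe sets. Genes were named from the array annotation (1 gene for 13513 probe sets, several for 503, none for 8730), and map order came from the TAIR10.1 gene table. The procedure was tested on simulated data with independent noise for each probe set and array. These held no shift shared by an array or by the plastid genes, so the simulation does not cover such shifts. The number of unassigned columns was 0.

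Every gene was named, with values on all arrays for each called gene, for the 3 widest changes of a class and for its flattest gene; further genes were added for completeness. Of nuclear lists, called genes or the widest change were named. Members and lists were chosen with earlier results of these data known. The 15 alternatives were the deposited scale, median scaling, centring on plastid photosynthesis genes, pseudocounts of 1 and 64, no filter, a replicate block, trend with robust variances, fitting only the groups compared, and leaving out each array.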

Additional observations from a re-analysis of the deposited data

Results flagged for a closer look

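For 3 of the 26 genes both OsTOP6A3 arrays lay below, and both OsTOP6B arrays above, both wild-type arrays. The share of all tested probe sets with this pattern was not counted, so whether 3 is many cannot be said. The difference between the overexpressors (OsTOP6A3 minus OsTOP6B) was -1.13 for rps15, -1.40 for rpl16 and -1.17 for ycf3 on the log2 scale. In limma's test of that difference none passed, with adjusted p-values of 0.658 for rps15, 0.505 for rpl16 and 0.675 for ycf3.

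Outside the comparisons, 1 of the array's control probe sets gave deposited intensities of 323.7 to 496.7 on the 4 overexpressor arrays and of 3.1 and 19.2 on the wild-type arrays. The annotation used here gives it no gene.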

How the results depend on the processing

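Of 1170 values of single genes under the 15 alternatives 1009 kept their direction and their side of the threshold, 28 lost a call, 35 gained one and 98 changed sign without a call; 0 called values changed sign. rps4 stayed called in OsTOP6A3 under 15 of 15, ccsA under 4, and in OsTOP6B rpl16 under 10, rpl20 under 10 and accD under 8. For results that moved, the cause was not tested.

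The number of the 26 genes called in OsTOP6A3 was 1 on the deposited scale, after centring on photosynthesis genes, with a pseudocount of 1, without the filter or with only the groups compared, 4 with trend and robust variances, and 1 to 2 with an array left out. In OsTOP6B it was 5 on the deposited scale, 7 with median scaling, 0 after centring or without the filter, 1 with a pseudocount of 1, 8 with a pseudocount of 64 or trend and robust variances, and 0 to 4 with an array left out. Of these, 2 were lower with median scaling (rps4 and rpl33), with a pseudocount of 64 or with trend and robust variances (rps4 and rpl36 in both), and without OsTOP6B replicate 1 (rpl22 and rpl33), and 1 was lower, rps4, with only the groups compared or without either OsTOP6A3 array. Between the overexpressors it was 1 with a pseudocount of 64 or with trend and robust variances. Over the array, calls in OsTOP6A3 numbered 1039 after centring, 1100 with a pseudocount of 1, 1002 without the filter and 560 to 2017 with an array left out. In OsTOP6B they numbered 1460 on the deposited scale, 465 after centring, 1608 without the filter and 1054 to 2210 with an array left out. Between the overexpressors they numbered 5 on the deposited scale, 24 after centring, and 1 with a pseudocount of 64 or with trend and robust variances.

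The median change of the 26 genes in OsTOP6A3 turned to 0.11 on the deposited scale and 0.22 after centring, and was -0.39 to -0.14 with an array left out. In OsTOP6B it was -0.16 after centring and -0.12 to 0.35 with an array left out. Between the overexpressors it was 0.37 after centring and -0.66 to -0.13 with an array left out. Centring took from each array the median log2 level of the photosynthesis and NDH genes, and not their median change. Values after centring therefore do not place the 26 genes relative to those genes. After the main normalization the median change in OsTOP6A3 was -0.20 for those genes and -0.28 for the 26. For OsTOP6A3 minus OsTOP6B it was -0.48 and -0.32. Calls were higher for 57% in OsTOP6A3 and 53.1% in OsTOP6B, but for 92.1% and 84.5% on the deposited scale and 93.6% and 43.2% after centring.

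Over all tested probe sets the deviations of same-numbered replicates correlated at 0.0021, -0.050 and 0.016 between groups, under the limit of 0.1, so the numbers were not taken to pair the samples. Among the 26 genes replicate 1 was above replicate 2 for 21 in wild type, 21 in OsTOP6A3 and 24 in OsTOP6B. Over all 17059 tested probe sets it was above for 8691, 8446 and 8391 in the same order. Of the 42 photosynthesis and NDH genes it was above for 36, 32 and 37. Plastid genes of both kinds were thus mostly higher on replicate 1 in all 3 groups, unlike the array as a whole. With a replicate block 4 of the 26 genes were called in OsTOP6A3, 6 in OsTOP6B and 0 between the overexpressors, and 1452, 2161 and 0 probe sets over the array. The files hold no detection calls, and changes of dim probe sets depend on the pseudocount.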

Other observations

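Genes split by a group II intron on textbook maps were looked at after the values had been seen, and no test was run. Of the 26 genes 5 carry such an intron: rps16, rpl16, rpoC1, clpP and ycf3. In OsTOP6B all 5 had a positive change (0.55, 0.88, 0.00, 0.55 and 0.96, median 0.55), of which rpl16 passed the threshold, while 11 of the 21 genes without one did (median 0.04). Groups lay above wild type for 4 of the 5 and for 6 of the 21. In OsTOP6A3 the medians of both sets were alike, at -0.27 and -0.28. Of the photosynthesis and NDH genes, 4 with 1 probe set of their own have such an intron (atpF, petB, petD and ndhA), and their median change in OsTOP6B was 0.37, beside 0.14 for the other 38. petB, at -0.12, was the 1 of these 4 below wild type. rpl2 and rps12, kept apart because their probe sets list more than 1 gene copy, also have introns on textbook maps. In OsTOP6B rpl2 stood at -0.34 and the rps12 probe sets at -0.43 and 0.36. rps16, rpl16, rpoC1 and ycf3 are also among the 13 dimmer of the 26 probe sets. The median change in OsTOP6B was 0.30 for the 13 dimmer and -0.04 for the 13 brighter, so intron and brightness were not separated.

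Of the 7 housekeeping probe sets that list 2 gene copies none was called. One rps12 probe set, for a small-subunit protein, read 8.26 and 7.66 in wild type, 7.23 and 6.67 in OsTOP6A3, and 7.78 and 7.28 in OsTOP6B, a change of -1.01 ± 0.27 in OsTOP6A3 (adjusted p = 0.0592 in limma's test). The other rps12 probe set changed by -0.64 ± 0.27 in OsTOP6A3 and 0.36 ± 0.27 in OsTOP6B. rps7 stood at -0.73 ± 0.24 in OsTOP6A3 (adjusted p = 0.105) and -0.04 in OsTOP6B. rpl2 and rpl23, neighbours at the start of the ribosomal protein cluster, stood at 0.18 and 0.12 in OsTOP6A3 and at -0.34 and -0.55 in OsTOP6B. ycf1 stood at -0.17 and 0.01, and ycf2, with a log2 level of 4.85 to 5.76, at -0.51 and 0.13.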
